A study of Ecsenius pulcher with 24 samples.

Results

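The comparison concerned the 12 fish that never met low oxygen, out of 24 fish in the series: 6 post controls and 6 acute controls of Ecsenius pulcher, a blenny. Post controls were the unexposed fish of the post-hypoxia time point, taken after the exposed fish had been returned to oxygen. Acute controls were those of the acute time point, taken while the exposed fish were in hypoxia. They were found by the words "Control group" in the sample titles, with 6 numbered replicates in each group. Neither group was hypoxic, so the comparison shows how far unexposed muscle differed between the 2 sampling series. The remaining 12 fish, 6 post hypoxic and 6 acute hypoxic, entered the choice of features tested, the scaling and the estimate of the spread. They also gave a few side-by-side values. Per the series' design text, each replicate was a slice across the front of the tail with the skin removed; strain, age and sex are not given there.

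Nearly all of the tail of a bony fish is myotomal muscle, blocks of mostly fast white fibres that power swimming, with a thin strip of slow red fibres under the skin. Muscle mRNA is dominated by a small number of very abundant messages for contractile and energy-handling proteins, so a change in those few messages alters the share of counts left to every other message. A slice also carries connective tissue, vessels, blood and nerve, and fewer cells of a type cannot be told apart from less RNA per cell. The table identifies features only by assembly ID, a cluster of transcripts put together from the reads. The IDs are not paired with gene names, so no gene, pathway or marker can be named, and the muscle label could not be checked against muscle markers.

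The libraries of post controls held 31089614 to 38150699 estimated counts, and those of acute controls held 31558422 to 43603368. The 2 sets of libraries carry different styles of name in the labels, with a prefix F in post controls and LC in acute controls. The labels give no date or batch. A batch that follows these names would divide the 12 fish as the time point does, and could not be told apart from it. No fish of either series occurs in the other, so the time points could not be compared within such a batch. P-values set a difference against the spread between fish, which for tests of single features was pooled over all 24 libraries.

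In post controls 2679 features rose and 2498 fell relative to acute controls, by the quasi-likelihood test of edgeR at an adjusted p of 0.05 (n = 6 fish per group). The 5177 features were 7.88% of the 65664 tested, with 4.08% higher and 3.8% lower. Without adjustment, 14977 features (22.8%) had a p under 0.05. The typical difference was small and close to its error, as the median standard error over all features tested was 0.39 log2 units. Over all features tested the median absolute log2 fold change was 0.42, which is a 1.34-fold difference, and the interquartile range was 0.19 to 0.82. Among the features past the threshold the median was 1.59 log2 units, a 3.02-fold difference, with an interquartile range of 1.10 to 2.30. Higher and lower features were of like size, with medians of 1.66 and 1.52 log2 units.

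A fitted difference of at least 1 log2 unit was reached by 12162 features, or 18.5% of those tested, of which 4202 also passed the threshold. At 2 log2 units the number past the threshold was 1752, at 3 it was 658, at 4 it was 272, and at 5 it was 119. Of the 119, 58 were higher in post controls and 61 lower. Passing the threshold shows only that a difference is not 0. When edgeR tested against a minimum change of 2-fold, 730 features passed, or 1.11% of those tested, with 387 higher and 343 lower in post controls. That is 14.1% of the 5177.

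**Figure D1:**
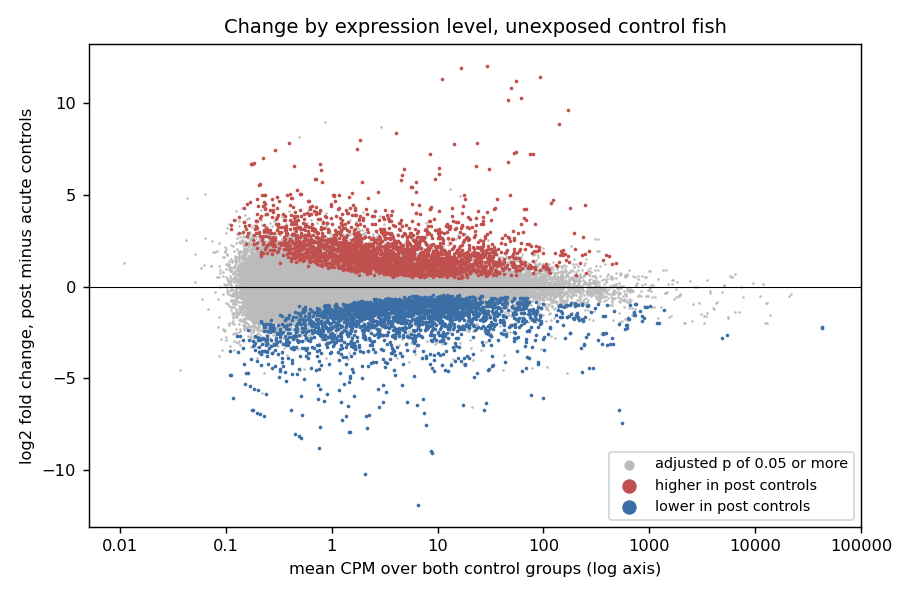
Log2 fold change, post minus acute controls, against the mean CPM of the 12 control fish on a log axis, with 1 point for each of 65664 features; red points (2679) were higher and blue points (2498) lower in post controls at an adjusted p of 0.05. The 90th percentile of the absolute change is largest under 0.5 CPM, at 1.76 log2 units, while the largest single change, 12.0, lies at 10 to 100 CPM. At the far right the 2 most abundant features lie below 0.

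Calls became more frequent with expression level. Levels are CPM, counts relative to a library size that trimmed mean of M-values (TMM) factors adjust, and each feature was placed by its mean over the 2 control groups. Of 14087 features under 0.5 CPM, 2.97% passed the threshold. The share was 5.12% at 0.5 to 1 CPM, 7.34% at 1 to 2 CPM, 9.06% at 2 to 5 CPM and 10.8% at 5 to 10 CPM. At 10 to 100 CPM 1364 of 10168 features passed, or 13.4%, and at 100 CPM or more 143 of 1112, or 12.9%. With DESeq2 the order of these 2 classes was the reverse, at 18.6% and 20.4%. With 10 classes of equal size, the share was 2.85% in the lowest and 13.9% in the highest. Many rare features were tested only because the hypoxic libraries entered the filter. With the 12 control libraries alone, the class under 0.5 CPM held 5767 features, of which 1.44% passed.

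The size of the difference was lowest at middle levels. Features under 0.5 CPM had a median absolute log2 fold change of 0.63 with a median standard error of 0.68, so the typical difference was no larger than its error. At 5 to 10 CPM the median was 0.31 with a standard error of 0.26. It was 0.34 at 10 to 100 CPM and 0.46 at 100 CPM or more, where the standard error was 0.32. The smallest difference that passed the threshold was 1.08 log2 units under 0.5 CPM and 0.46 at 10 to 100 CPM. Of the features that differed by at least 1 log2 unit, 10.1% passed under 0.5 CPM, against 66.5% at 10 to 100 CPM. A rare feature thus needed a larger change to pass, and a low share of calls among rare features does not show that they differed less. The median size of the features that passed was 2.89 log2 units under 0.5 CPM, 1.27 at 5 to 10 CPM and 1.70 at 100 CPM or more.

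The most abundant features stood apart in direction. Under 0.5 CPM, 239 features were higher and 179 lower in post controls. At 2 to 5 CPM, 607 were higher and 559 lower. At 100 CPM or more, 42 were higher and 101 lower with TMM factors, whereas with total counts alone 126 were higher and 82 lower. The median log2 fold change at 100 CPM or more was -0.14 with TMM factors, 0.18 below the median of all features, which was 0.04. With total counts alone it was 0.22, but the median of all features was then 0.47, which is 0.25 higher than this class. The choice of factors moves all features by nearly the same amount, so the sign of this class depends on it.

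**Figure D2:**
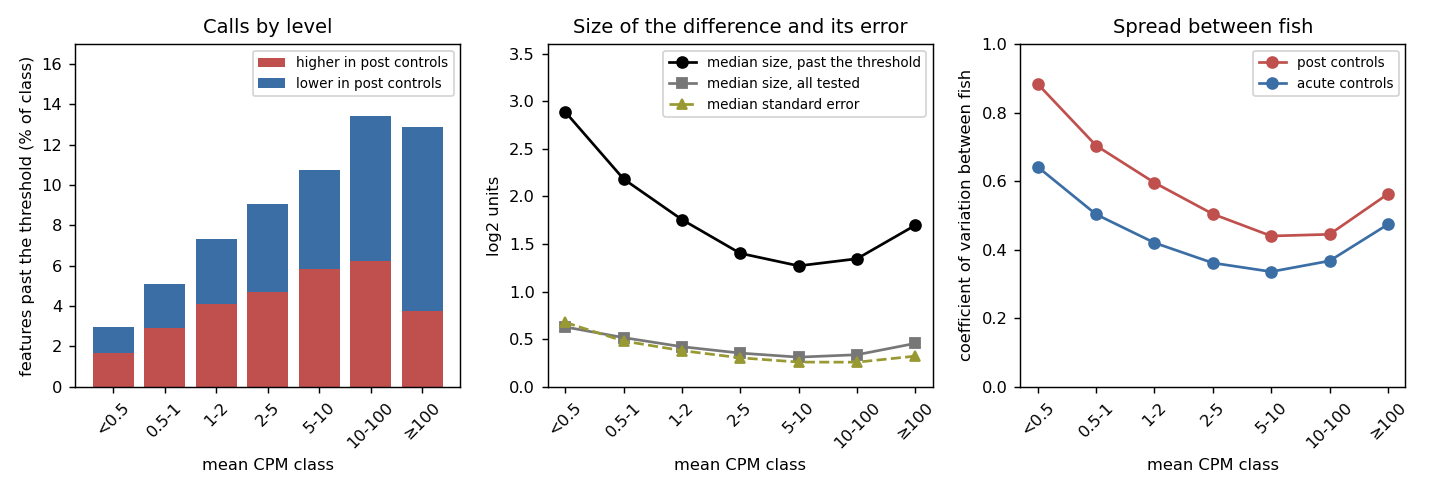
Features grouped by mean CPM over the control fish into 7 classes: the share past the threshold, split by direction (left), the median absolute log2 fold change and its median standard error (middle), and the biological coefficient of variation between fish of each group from edgeR (right). Calls run from 2.97% in the lowest class to 13.4% at 10 to 100 CPM, while the coefficient is higher in post controls in each of the 7 classes.

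The scaling set the balance of directions. With TMM factors 51.7% of the calls were higher in post controls. With DESeq2 size factors the share was 52.5%, and with upper-quartile factors 48.7%. With total counts alone 8938 features passed, of which 7870 were higher and 1068 lower, so 88.1% were higher. The median log2 fold change of all features was 0.43 higher without factors than with them. Of the 5177 calls, 3722 passed in the same direction on total counts. The TMM factor averaged 1.15 ± 0.290 in post controls and 0.847 ± 0.198 in acute controls (SD, n = 6 each; exact two-sided permutation p 0.0671, adjusted p 0.101 over 6 library measures).

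The libraries also differed in how their counts were concentrated. The top 100 features of each library held 32.4% ± 8.18 of the counts in post controls and 46.4% ± 9.18 in acute controls (SD, n = 6 each; exact two-sided permutation p 0.0238, adjusted p 0.0519 over 6 measures). The number of features needed to hold 50% of the counts was 220 to 1273 in post controls, with a median of 819. In acute controls it was 49 to 647, with a median of 155 (exact two-sided permutation p 0.026, adjusted p 0.0519). The groups overlapped on both measures. Neither passed after adjustment over these 6 measures, and both did (adjusted p 0.0455) over 7, with a measure added after seeing the data. The top 10 features held 9.58% to 16.8% of the counts in post controls and 14.5% to 30.9% in acute controls (exact two-sided permutation p 0.00649, adjusted p 0.039), and this measure did pass. The number of features with at least 1 count averaged 127347 ± 18145 in post controls and 129531 ± 15323 in acute controls (SD, n = 6 each; exact two-sided permutation p 0.835).

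**Figure D3:**
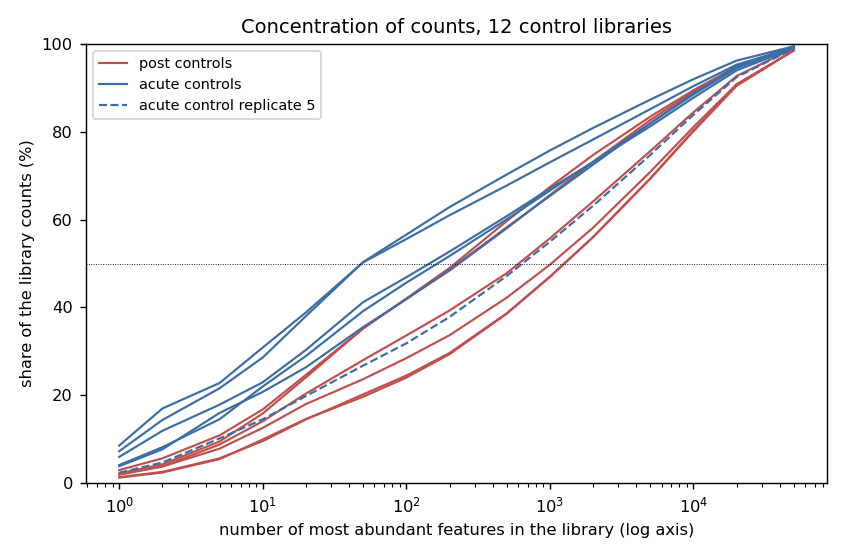
Share of a library's counts held by its most abundant features, against the number of features on a log axis, with 1 line per control fish; the dotted line marks 50%. The most concentrated acute control libraries reach 50% with 49 features, and acute control replicate 5 (dashed), which needs 647, lies among the post controls.

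The features past the threshold held unequal parts of the libraries. Those called higher took 3.79% to 7.18% of the counts of a post control fish, and 0.831% to 2.00% of an acute control fish. Those called lower took 4.96% to 7.75% of the counts of a post control fish, and 9.92% to 25.8% of an acute control fish. These shares describe features selected for the difference. The lower features held more counts than the higher ones in all 6 acute controls and in 4 of 6 post controls. Much of the lower share lay in 2 features, TRINITY_DN1186_c1_g2 and TRINITY_DN132_c0_g1. They took means of 5.27% and 5.23% in acute controls, out of 19.4% for all lower features. In post controls they took 1.48% and 1.52%, out of 6.56%. The comparison was not repeated without them, so it does not describe the lower features at large. In post control replicate 4 the higher features held 5.81% and the lower 4.96%, and in replicate 6 the higher held 7.18% and the lower 5.19%. Counts in all 12 control fish were present for 56082 features, or 85.4% of those tested, and for a near share of the 5177, 87.6%. The filter requires counts in several libraries, so these shares do not separate a difference of degree from one of presence. Among features tested, 4 had counts in every post control and none in any acute control, and 8 had the reverse pattern. Of the 5177, 12 had no counts in any post control and 7 none in any acute control. All features tested were not counted in this way, so these 2 counts have no share to be set against.

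Under the rule that named the 2 higher and 2 lower features with the largest difference in mean CPM among the calls, TRINITY_DN3469_c0_g1 had the largest fold change of the 4. Its level in post controls ran from 196.8 to 682.2 CPM with a median of 509.8, against 7.60 to 47.6 CPM with a median of 15.97 in acute controls. The lowest post control fish, replicate 3, was over 4 times the highest acute control fish, replicate 3. The change was 4.44 log2 units with an SE of 0.56 (edgeR adjusted p 8.99e-06), a 21.7-fold difference, and it also passed against the 2-fold minimum (adjusted p 7.55e-05). TRINITY_DN9029_c0_g2 had 484.4 to 698.9 CPM in post controls with a median of 671.5, against 95.3 to 272.9 CPM in acute controls with a median of 197.7. The groups did not overlap. The change was 1.66 log2 units with an SE of 0.41 (edgeR adjusted p 0.0131), a 3.16-fold difference that did not pass against the 2-fold minimum.

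TRINITY_DN1186_c1_g2 and TRINITY_DN132_c0_g1 were the 2 most abundant features tested in acute controls. TRINITY_DN1186_c1_g2 had 5322 to 23431 CPM in post controls with a median of 14703, against 16094 to 123285 CPM in acute controls with a median of 57489. TRINITY_DN132_c0_g1 had 5751 to 24039 CPM in post controls with a median of 14811, against 16527 to 120689 CPM in acute controls with a median of 57217. For both, acute control replicate 5 lay below 2 post control fish, replicates 2 and 3, and the other 5 acute controls lay above every post control. TRINITY_DN1186_c1_g2 took a mean of 1.48% of the counts in post controls and 5.27% in acute controls, and changed by -2.28 log2 units (edgeR adjusted p 0.0163, SE 0.58). TRINITY_DN132_c0_g1 took 1.52% in post controls and 5.23% in acute controls, and changed by -2.22 log2 units (edgeR adjusted p 0.0173, SE 0.58). Neither of the 2 passed against the 2-fold minimum (edgeR adjusted p 0.195 and 0.213). The level of the first was 0.925 to 1.02 times that of the second in each of the 12 fish. All 4 named features, the 2 higher ones included, have values that are not whole numbers. How reads were divided between features could therefore enter their levels, which is uncertain here. The calls for both lower features were lost in a fit of the 12 control libraries alone. Their log2 fold changes there were -2.27 and -2.21 (edgeR adjusted p 0.0646 and 0.0678). With a replicate block they were -2.15 and -2.10 (edgeR adjusted p 0.0524 and 0.0537). The call for TRINITY_DN132_c0_g1 was also lost without acute control replicate 2 (edgeR adjusted p 0.0503).

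**Figure D4:**
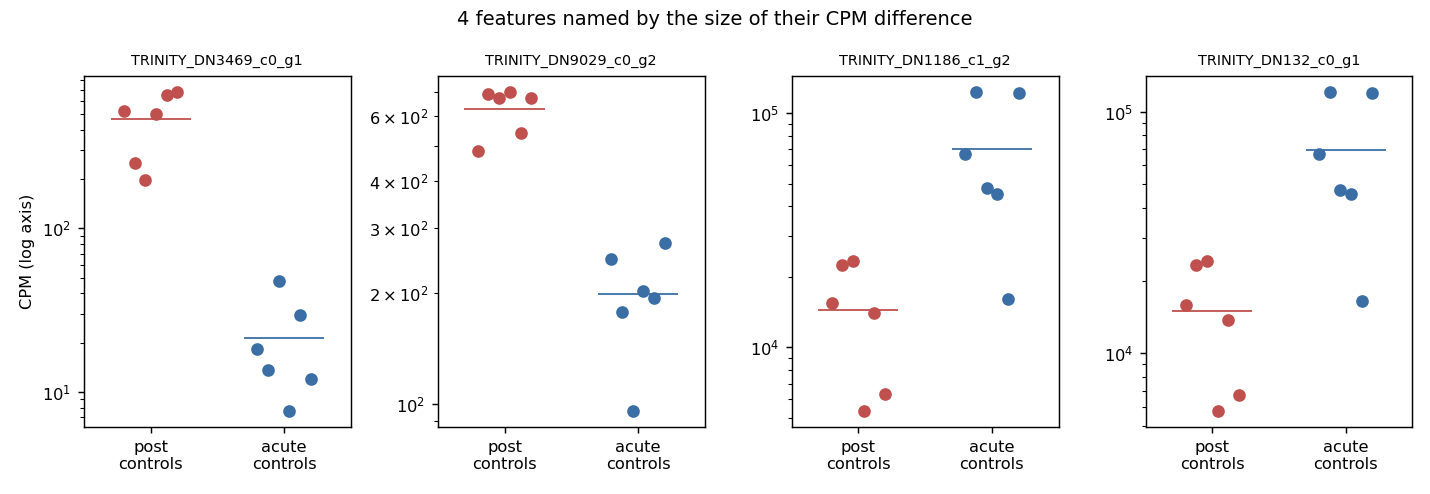
Level in CPM on a log axis of the 4 named features in each post control (red, left) and acute control (blue, right) fish, with bars at the group means. The groups are apart for the 2 higher features, and for the 2 lower features only acute control replicate 5 falls within the range of the post controls.

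The hypoxic fish of the 2 series gave values side by side. They are other libraries than the controls, but entered the same filter, scaling and estimate of the spread. Post hypoxic fish had also been returned to oxygen, so their difference from acute hypoxic fish mixes the series with recovery. TRINITY_DN3469_c0_g1 averaged 530.1 ± 229.4 CPM in post hypoxic fish and 11.9 ± 9.27 CPM in acute hypoxic fish (SD, n = 6 each), a difference of 5.48 log2 units (SE 0.59, edgeR adjusted p 6.86e-07). TRINITY_DN9029_c0_g2 averaged 568.4 ± 236.9 CPM in post hypoxic fish and 259.6 ± 125.5 CPM in acute hypoxic fish, where the log2 difference of 1.13 (SE 0.41) did not pass (edgeR adjusted p 0.0996). TRINITY_DN1186_c1_g2 averaged 13160 ± 3420 CPM in post hypoxic fish and 52297 ± 34525 CPM in acute hypoxic fish, a difference of -1.99 log2 units (SE 0.58, edgeR adjusted p 0.0389). TRINITY_DN132_c0_g1 averaged 13590 ± 3381 CPM in post hypoxic fish and 51884 ± 34028 CPM in acute hypoxic fish, a difference of -1.93 log2 units (SE 0.57, edgeR adjusted p 0.0417). For these 2 lower features acute hypoxic replicate 1, at 5128 and 5338 CPM, lay below every post hypoxic fish. The lowest post hypoxic fish had 7872 and 8296 CPM. The difference between the change in controls and that in hypoxic fish did not pass for any of the 4 named features (edgeR unadjusted p 0.145 to 0.719, adjusted p 0.9997 for each).

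The estimated spread between fish was larger in the post group. The biological coefficient of variation, the spread between fish beyond counting noise as edgeR estimates it, was 0.587 in post controls and 0.420 in acute controls over all features tested. It was 0.525 to 0.618 in post controls and 0.408 to 0.424 in acute controls when 1 fish at a time was left out. Such refits of a group share most of their fish, so these ranges do not measure the error of the gap. The lowest post value, 0.525, was that without replicate 3. Post control replicates 2 and 3 were not left out together, so whether the gap rests on them was not tested. The gap was present at each level: 0.883 in post controls and 0.642 in acute controls under 0.5 CPM, 0.440 in post controls and 0.336 in acute controls at 5 to 10 CPM, and 0.562 in post controls and 0.474 in acute controls at 100 CPM or more. Feature by feature, the SD of log2 CPM was larger in post controls for 70.9% of those tested, with a median of 0.70 in post controls and 0.51 in acute controls. Among the 5177 calls it was larger in post controls for 63.8%.

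The distance of each fish from the mean of its own group, as a root mean square (RMS) over features, was 0.820 ± 0.160 log2 units in post controls and 0.646 ± 0.0262 in acute controls (SD, n = 6 each; exact two-sided permutation p 0.0108). Acute controls were alike, at 0.602 to 0.673. Post controls ran from 0.652 in replicate 1 to 0.886 in replicate 2 and 1.10 in replicate 3. The difference of 0.175 was 0.0790 without post control replicate 3 (exact permutation p 0.225, n = 5 and 6) and 0.134 without post control replicate 2 (exact permutation p 0.0736, n = 5 and 6). On features of at least 10 CPM it was 0.0937 (exact permutation p 0.16, n = 6). The larger distance in post controls thus did not pass without either of these 2 fish, or among more abundant features.

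Distances between the groups were set beside this spread. Pairs of 1 post and 1 acute control fish differed by an RMS of 1.32 log2 units on average, from 0.980 to 1.63. Pairs of post controls differed by 1.27 on average, from 0.896 to 1.66, and pairs of acute controls by 1.00, from 0.922 to 1.10. The 9 post pairs that held replicate 2 or 3 ran from 1.25 to 1.66, and the other 6 from 0.896 to 1.12. Mean Spearman correlations over features were 0.862 between the groups, 0.873 within post controls and 0.921 within acute controls. Pairs share fish and are given as a description. Each of the 12 fish had its nearest neighbour in its own group. The 3 closest pairs across groups all held acute control replicate 5, with post control replicates 4, 1 and 6. Over all features, post control replicates 2 and 3 were 1.34 to 1.63 from every acute control.

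In 2575 features, 3.92% of those tested, every post control fish lay on one side of every acute control fish, with 1261 above and 1314 below. The share was 1.63% under 0.5 CPM and 7.11% at 10 to 100 CPM. Of the 5177 calls 2106, or 40.7%, had groups that did not overlap, and of the 730 past the 2-fold minimum 598 did. The calls were chosen for a difference between these same fish. A share above the 3.92% of all features tested thus follows from the choice. The other 3071 calls rested on a difference of means with some fish out of place. The acute fish closest to the post controls was replicate 5 in 37.2% of the calls, against 9.19% to 16.9% for each other acute fish. The post fish closest to the acute controls was replicate 3 in 23.7% and replicate 2 in 19.2%, against 11.7% to 16.1% for the others. The closest fish was counted among the calls only, not over all features tested.

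To place each fish on features called without it, the test was refitted without that fish. The filter and the TMM factors behind log2 CPM still came from all 24 libraries, the left-out fish included. Its log2 CPM was scaled so that 0 was the mean of the other acute controls and 1 that of the other post controls. Over the 3485 to 5613 features called in these refits, the median position of left-out acute controls was -0.08 to 0.10 for 5 fish and 0.37 for replicate 5. That of left-out post controls was 0.75 to 0.93 for 5 fish and 0.64 for replicate 3. Every fish thus fell on the side of its own group by its median. A single feature placed a fish less surely. The left-out fish lay on its own side of the midpoint for 58.3% of features in post control replicate 3 and 61.9% in acute control replicate 5. For the other post controls this was 67.7% to 77.3%, and for the other acute controls 81.4% to 89.3%.

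**Figure D5:**
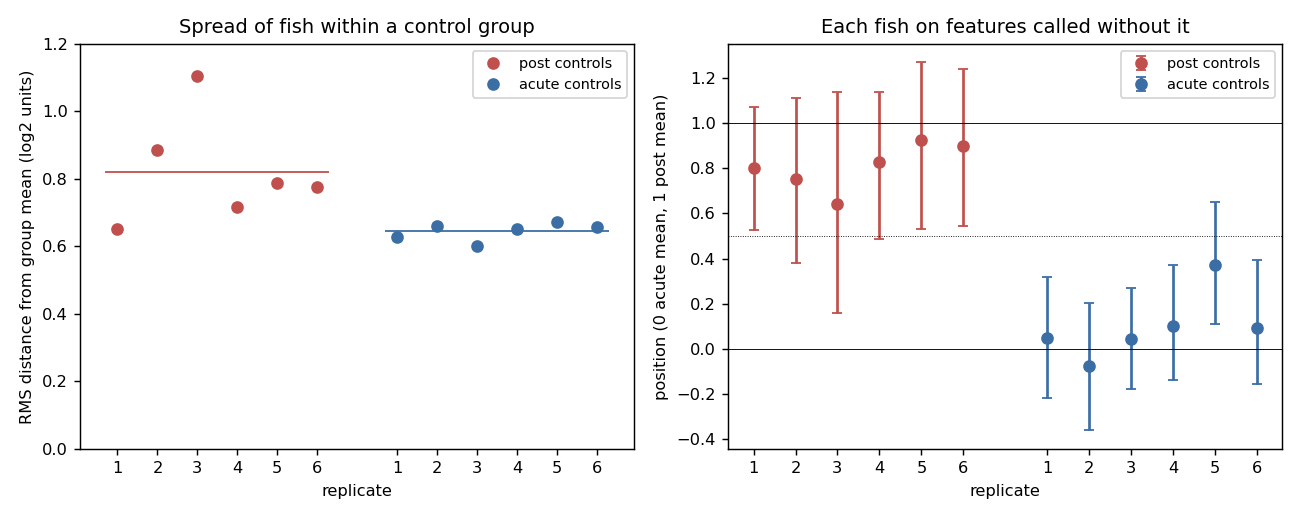
RMS distance of each control fish from its group mean in log2 units, with bars at the means (left), and the median position with quartiles of each fish on features called without it, where 0 is the acute mean and 1 the post mean (right). Post control replicate 3 has the largest distance, 1.10, and acute control replicate 5 the highest position among acute fish, 0.37.

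The fish that lay nearest the other group on the called features also differed from the rest of their group in concentration. The top 100 features held 31.8% of the counts in acute control replicate 5, against 41.9% to 56.6% in the other acute controls. They held 42.0% in each of post control replicates 2 and 3, against 24.0% to 33.6% in the other post controls. With this share as a covariate, chosen after seeing the data, 4259 features passed, 2309 higher and 1950 lower. Of these, 2399 were among the 5177 calls in the same direction, which is 46.3% of the 5177 and 56.3% of the 4259. With the covariate 425 features passed the 2-fold minimum, of which 285 were higher, and 15415 features (23.5%) reached 1 log2 unit. The top 100 share averaged 32.4% in post controls and 46.4% in acute controls. The covariate could therefore take up part of the group difference, and the part of concentration in the calls was not tested. In this fit TRINITY_DN3469_c0_g1 differed by 4.42 log2 units (edgeR adjusted p 0.00027, SE 0.68). TRINITY_DN1186_c1_g2, whose own counts enter the covariate, differed by -0.42 log2 units (edgeR adjusted p 0.505, SE 0.36).

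A trace of the counting itself also divided the groups. Estimated counts are not whole where reads that match several features are shared out. Of the nonzero values 4.53% to 7.33% were not whole in post controls, against 3.39% to 4.11% in acute controls. The groups did not overlap (exact two-sided permutation p 0.00216, the smallest that 924 divisions give, adjusted p 0.0152 over 7 measures, n = 6 each), and this measure was chosen after seeing the data. Of the 16772 features with such a value in a control library 9.96% passed the threshold, against 7.17% of the 48892 whole in all 12. These features were also more frequent at high levels, with 16.5% under 0.5 CPM and 73.5% at 100 CPM or more. When only the 48892 were fitted, 3536 passed, 1845 higher and 1691 lower. The part of read sharing in the other calls was not tested.

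Features whose assembly IDs differ only in the last part, g and a number, form a component. The 5177 calls lay in 4604 components, and 542 components held at least 2 of them. In 17 of the 542, or 3.14%, the calls went in both directions. Members that did not pass were not examined, so there is no share over all features tested to set beside it.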

How the data were processed

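Polyadenylated RNA of 24 muscle slices was sequenced, and the authors deposited 1 table of estimated counts for 518956 features in 24 columns, not scaled between libraries, per the file headers. Trimmomatic, RSEM and kallisto were used, per the submitters' processing notes, which as held here list no version, assembly setting or annotation. Groups and replicate numbers came from sample titles, and columns were matched by library name. No pair of control fish of a group agreed within sampling noise (chi-square per feature 30.6 to 239.5 over 30 pairs, against 1).

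Counts were rounded and filtered over all 24 libraries with filterByExpr (minimum count 10, minimum total 15), which left 65664 features and 98.9% to 99.6% of each library. The quasi-likelihood test of edgeR 4.0.16 (R 4.3.3) used all 24 libraries in 1 model of 4 groups, with TMM factors. Adjustment was by Benjamini-Hochberg over all features, and glmTreat gave the 2-fold minimum. SE was the log2 fold change divided by the square root of F. Log2 CPM used a prior count of 2. Library measures and distances were compared by exact permutation (scipy 1.17.1, 924 divisions). DESeq2 1.42.0 and limma 3.58.1 were alternatives, with limma voom run with a quality weight for each library. The division, named-feature rule and tests were chosen with earlier results of these data known. Estimated counts were taken as deposited, with no molecular identifiers, so duplicate molecules remain in them.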

Additional observations from a re-analysis of the deposited data

Results flagged for a closer look

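The number of features that hold 50% of the counts was 647 in acute control replicate 5, far above the 49 to 231 of the other 5 acute controls. It was examined as 1 of 30 group values of 6 fish, and chance marks about 1 in 20 such groups.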

How the results depend on the processing

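The count of 5177, of 65664 tested, became 1897 at an adjusted p of 0.01, 8592 at 0.1, 8044 with DESeq2 and 8938 on total counts. With no filter it was 8281 of 487995 tested, 5894 of them among the features that pass the filter. Leaving out fish, the count was 3485 (without acute control replicate 2) to 5613. It was 6917 with limma voom, where each library also had a quality weight. It was 5225 without the 100 most abundant features and 5144 with a robust spread, the last chosen after seeing the data. Some settings tested fewer features. The count was 3927 of 56542 in the 12 control libraries alone and 4195 of 51864 summed per component. A stricter filter, at least 1 CPM in 6 libraries, gave 5080 of 46169. DESeq2, which called more features, called 99.6% of the 5177 in the same direction, and the fit with no filter 68.1%. The share was 82.9% with limma voom and 76.8% with a replicate block. It was 67.8% in the 12 control libraries alone, which tested fewer features, and 65.5% without acute control replicate 2. With no filter the SE of TRINITY_DN1186_c1_g2 was 0.060, against 0.58 in the main fit, so that count is not comparable with the others. The 730 past a 2-fold minimum became 1733 at 1.5-fold, 147 at 4-fold, 425 with the concentration covariate, and 498 to 812 leaving out fish. Features past 1 log2 unit were 8735 of 56542 (15.4%) in the 12 libraries alone. They were 6699 of 46169 (14.5%) with the stricter filter and 253801 of 487995 (52.0%) with no filter. They were 15415 with the concentration covariate and 16293 (24.8%) on total counts. The median log2 fold change was 0.47 on total counts. Under 0.5 CPM the share called was 1.44% in the 12 libraries alone, 6.61% with DESeq2 and 5.93% on total counts; at 100 CPM or more it was 20.4% with DESeq2. The spread difference of 0.175 was 0.19 on the 2000 most variable features (exact permutation p 0.145), 0.0937 at 10 CPM or more, and 0.0790 to 0.201 leaving out fish. Beside the main setting, its exact permutation p was under 0.05 in 15 settings and not in 4. These settings share most of their fish. Leaving out fish moved the difference in features detected between -7420 and 1683 (above 0 without post control replicates 2 or 3, or acute control replicates 1, 3 or 5). It moved total counts between -4980576 and -2571587, the TMM factor between 0.25 and 0.376, and the features holding 50% of the counts between 457.7 and 668.3. For each of these shifts the cause was not tested.

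Same-numbered fish were not taken as pairs. Correlations were taken between fish on log2 CPM less the mean of the fish's own group. Of 6 same-numbered pairs, 1 was over 0.1 (-0.0926 to 0.169), and 2 of 6 post fish correlated best with their own number. With a replicate block 4241 features passed, and TRINITY_DN1186_c1_g2 and TRINITY_DN132_c0_g1 did not. All 4 named features kept their direction in every refit that tested them.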
